A study of Mus musculus with 28 samples.

Results

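Schwann cell and glial genes were represented by 6 genes, *Sox10*, *Mbp*, *Cdh19*, *S100b*, *Foxd3* and *Pmp22*. They were chosen by symbol, and their rows were found by Ensembl ID among the 50600 genes of the count matrix, where all 6 were present. Their read counts were followed in cells sorted from the mammary glands of 7 adult female C57BL/6 mice carrying *Pdgfra*Cre and the R26mTmG reporter. In this reporter, cells that expressed the constitutive Cre at any time, and their progeny, are GFP+, and all other cells are tdTomato+. Each mouse gave 4 libraries, namely GFP+ luminal, tdTomato+ luminal, GFP+ stroma and tdTomato+ stroma. Luminal cells were EpCAM+ with low CD49f and stromal cells lacked both, after removal of endothelial, blood and red cells by CD31, CD45 and Ter119. Of the mice, 4 were untreated and 3 carried slow-release pellets of estrogen and progesterone (E+P), so that 8 groups of 4 or 3 libraries, 28 in all, were compared.

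Schwann cells are the glia of peripheral nerve and come from the neural crest. SOX10, a transcription factor of the SoxE family, is needed through the whole Schwann lineage and acts with EGR2 to switch on the genes of compact myelin, among them those for myelin basic protein (*Mbp*) and peripheral myelin protein 22 (*Pmp22*). None of these genes belongs to glia alone. SOX10 is also made by mammary epithelial cells, the *Mbp* locus also gives golli transcripts outside myelin, *Pmp22* is a growth arrest gene of fibroblasts and S100B is also made by adipocytes.

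The total per library ranged from 8623383 to 24583803 counts, and a count of 3 was worth 0.122 to 0.348 CPM. CPM, the usual per-million scaling of counts, sets every library to a common total, and the totals were scaled by TMM in the values below. Ratios of summed counts are the exception, since their totals were not scaled by TMM. Marker sums over small gene sets fitted the sorts in broad terms. The 4 luminal keratin and *Epcam* transcripts summed to between 3510 and 6560 CPM in luminal libraries. The 5 fibroblast markers summed to between 25100 and 49900 CPM in GFP+ stroma and to between 1450 and 5270 CPM in tdTomato+ stroma. That last subset also held 6020 to 8990 CPM of 6 pericyte and smooth muscle transcripts and 1860 to 16200 CPM of 5 skeletal muscle transcripts. Luminal transcripts summed to 253 and 420 CPM in the untreated tdTomato+ stroma of replicates 2 and 3, against 2.81 to 71.7 CPM in the other 5 tdTomato+ stroma libraries, so each result on this subset was also computed without those 2 libraries. In bulk libraries, fewer cells of a type and less RNA per cell cannot be told apart.

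The 6 genes did not share a pattern. *Sox10* (ENSMUSG00000033006.9, chr15:79154908-79165240, minus strand of GRCm38) had its highest mean in GFP+ luminal cells. *Mbp* (ENSMUSG00000041607.16, chr18:82475146-82585637, plus strand) was high in both luminal subsets, and *Cdh19* (ENSMUSG00000047216.8, chr1:110888326-110977584, minus strand) was about as high in GFP+ luminal cells as in GFP+ stroma. *S100b* (ENSMUSG00000033208.7, chr10:76253853-76261159, plus strand) was highest in GFP+ stroma, and *Pmp22* (ENSMUSG00000018217.12, chr11:63128982-63159547, plus strand) in tdTomato+ stroma. *Foxd3* (ENSMUSG00000067261.4, chr4:99656299-99658622, plus strand) was hardly detected. All are protein-coding genes, and counts cover their exons.

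**Figure D1:**
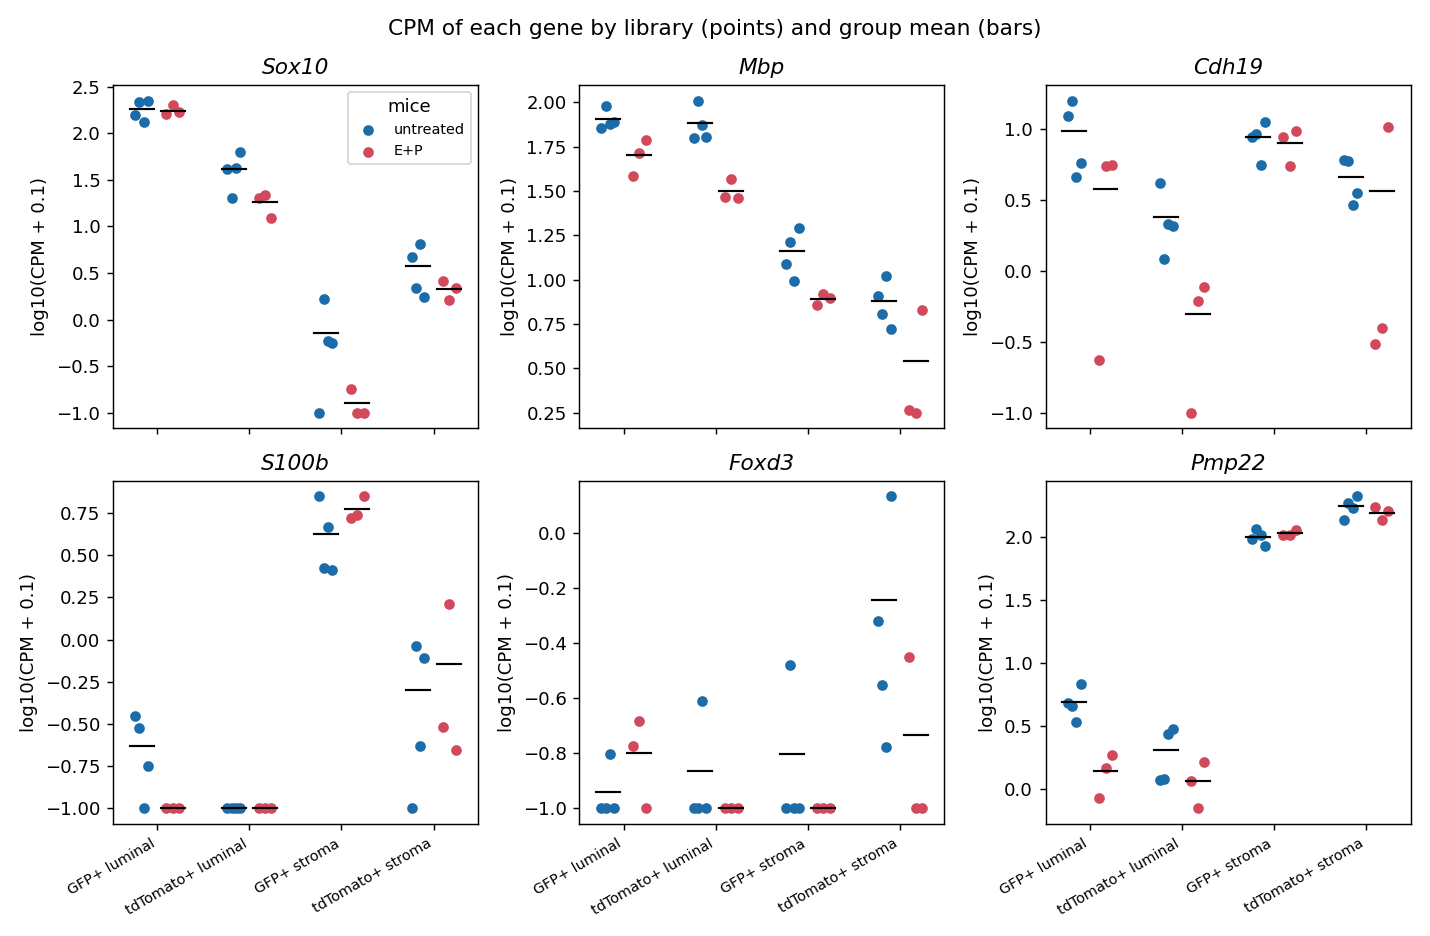
Level of each gene in all 28 libraries on the scale log10(CPM + 0.1), by sorted subset, with untreated mice in blue and E+P mice in red. Points are libraries and bars are group means of CPM, and points at -1.0 are libraries with a count of 0. The subset with the highest mean differs from panel to panel, from GFP+ luminal cells for *Sox10*, at 133 to 224 CPM, to tdTomato+ stroma for *Pmp22*, at 134 to 209 CPM.

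Across the transcriptome, 63.5% of the 19569 genes tested differed between luminal cells and stroma at an adjusted p of 0.01. Of the 6 genes, 5 had enough counts to be tested and 4 passed. In all, 30.5% of genes were higher in luminal cells, as were 2 of the 5, and 33.0% lower, as were 2 others, so the number that passed says little about these genes as a set. GFP+ and tdTomato+ cells differed in 42.0% of genes in stroma, where 4 of 5 passed, and in 34.7% of genes in luminal cells, where 2 of 4 passed. In stroma 20.6% of genes were higher in GFP+ cells and 21.3% lower, against 2 and 2 of the 5, and in luminal cells 15.7% were higher, against 2 of the 4.

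*Sox10* encodes the factor that sits highest in the Schwann lineage, yet here it was a luminal transcript. In GFP+ luminal cells it stood at 155, 214, 133 and 224 CPM in the 4 untreated mice and at 159, 199 and 167 CPM in the 3 E+P mice. In tdTomato+ luminal cells it stood at 40.7, 20, 41.8 and 62.3 CPM in untreated mice and at 20, 21.8 and 12.1 CPM after E+P. Every GFP+ luminal library was above every tdTomato+ luminal library, and GFP+ cells had from 3.18 to 13.8 times the level of tdTomato+ cells of the same mouse. The fitted difference was 2.68 on the log2 scale (SE 0.24, adjusted p = 4.23e-06), higher in GFP+ cells in 7 of 7 mice.

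Stroma held little *Sox10*, and the order of the subsets there was the other way round. tdTomato+ stroma stood at 4.56, 2.08, 6.37 and 1.65 CPM in untreated mice and at 2.5, 1.53 and 2.08 CPM after E+P. GFP+ stroma stood at 0, 1.55, 0.488 and 0.459 CPM and, after E+P, at 0.0812, 0 and 0 CPM. These 2 ranges overlap, since GFP+ replicate 2, at 1.55 CPM, passed the lowest tdTomato+ library, at 1.53 CPM. Within each mouse, however, the tdTomato+ library was higher, in 7 of 7. Over all libraries, 298 counts fell on *Sox10* in tdTomato+ stroma and 34 in GFP+ stroma, a ratio of 9.42 in CPM without TMM (95% interval 6.59 to 13.9, counting error only). The test gave an adjusted p of 8.8e-05, and the fitted log2 difference of -4.36 (SE 0.74) leans on the E+P GFP+ stroma, where 3 libraries held 1 count in all. Without the 2 luminal-rich libraries it was -4.26 (adjusted p = 0.000426).

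Between the compartments, *Sox10* was higher in luminal cells in every mouse and for both colors. In tdTomato+ cells the luminal level exceeded the stromal level by 3.30 on the log2 scale (SE 0.34, adjusted p = 9.55e-09). In GFP+ cells the CPM of the summed counts, without TMM, differed 707 times (95% interval 506 to 1020, counting error only), with 19774 counts in luminal libraries and 34 in stroma. Means with TMM were 178 and 0.368 CPM, and the test gave an adjusted p of 4.55e-14. Those comparisons called 59.3% and 52.5% of all genes. The GFP+ to tdTomato+ difference itself differed between luminal cells and stroma by 7.11 on the log2 scale (SE 0.66, adjusted p = 7.13e-09, with 33.2% of genes called), and the sign was the same in 7 of 7 mice.

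**Figure D2:**
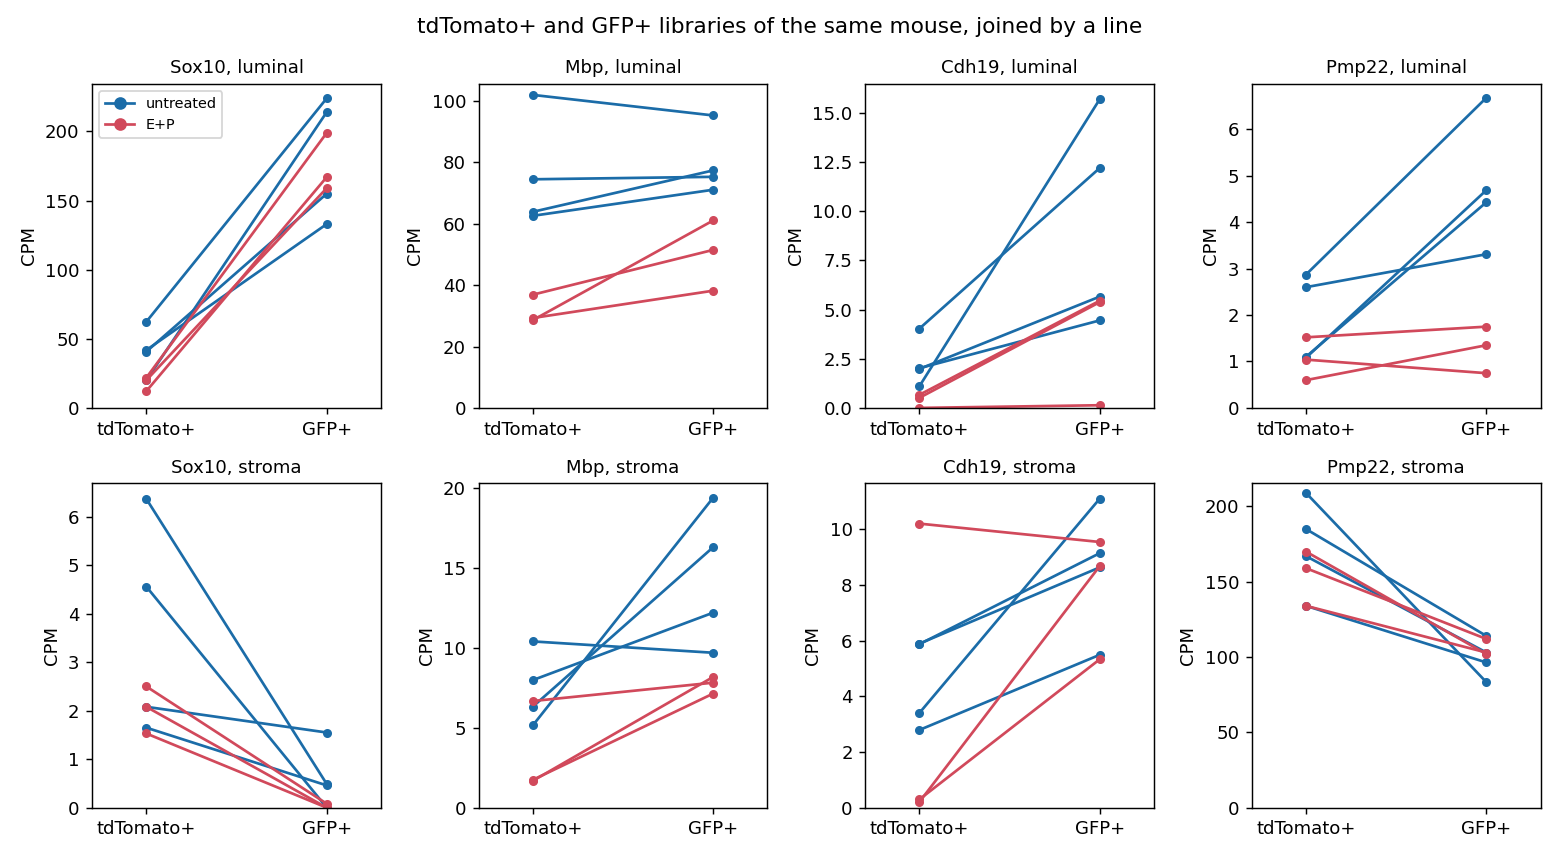
CPM of *Sox10*, *Mbp*, *Cdh19* and *Pmp22* in tdTomato+ and GFP+ cells of the same mouse, with luminal cells above and stroma below, with blue lines for untreated and red for E+P mice and a scale of its own in each panel. Lines for *Sox10* rise from tdTomato+ to GFP+ in luminal cells and fall in stroma in all 7 mice, while lines for *Pmp22* fall in stroma in all 7.

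Luminal transcripts in stromal libraries were set beside *Sox10*. In tdTomato+ stroma, *Sox10* came to between 8.22 and 740 CPM for each 1000 CPM of the 4 luminal markers, while tdTomato+ luminal cells had 1.97 to 10.4 and GFP+ luminal cells 25.5 to 56.7. The lowest ratios in that stroma, 8.22 and 15.2, were in the 2 luminal-rich libraries, and the E+P libraries had 316, 46.6 and 740. In GFP+ stroma the ratio was 0 to 25.8, so that its highest library met the low end of GFP+ luminal cells. Of 6 melanocyte genes, *Dct* averaged 4.37 CPM in tdTomato+ and 0.00703 CPM in GFP+ stroma, *Tyrp1* 1.18 and 0, *Tyr* 0.380 and 0.0232 and *Pmel* 0.745 and 0.416 CPM. The other members had higher means in GFP+ stroma, *Mitf* at 180 against 35.0 CPM and *Mlana* at 2.53 against 0.279 CPM, and *Mitf* was the one of the 6 that passed the test. The part of luminal or melanocyte transcripts in the stromal *Sox10* values was not tested beyond these ratios.

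**Figure D3:**
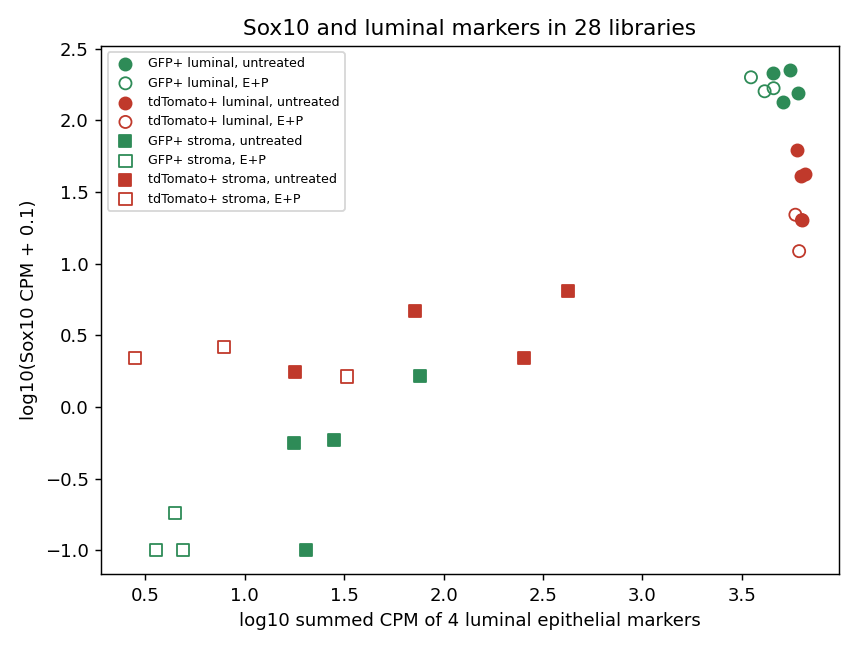
Level of *Sox10*, as log10(CPM + 0.1), against the log10 of the summed CPM of 4 luminal markers in 28 libraries, with circles for luminal cells, squares for stroma, green for GFP+ and red for tdTomato+, filled for untreated mice and open for E+P. Red open squares lie at 1.53 to 2.5 CPM of *Sox10* with 2.81 to 32.8 CPM of luminal markers, while green open squares lie at 0 to 0.0812 CPM.

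*Sox10* did not change detectably with E+P in GFP+ luminal cells, where 5.96% of genes were called and the log2 difference was -0.06 (SE 0.32, adjusted p = 0.935). In tdTomato+ luminal cells, where 14.1% of genes were called, its mean was 41.2 CPM in untreated mice and 18.0 CPM after E+P. The groups overlapped only through untreated replicate 2, at 20 CPM, and the difference of -1.17 (SE 0.34) missed the threshold, at an adjusted p of 0.0216 that ran from 0.00184 to 0.11 over the alternatives. Without untreated replicate 2 it was -1.40 and passed, at 0.00308. The 2 responses differed by 1.11 (SE 0.46, adjusted p = 0.173), with 2.27% of genes called in that test.

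Markers of luminal progenitors moved with *Sox10* in these libraries. The 5 markers (*Elf5*, *Kit*, *Aldh1a3*, *Cd14* and *Ltf*) summed to 692, 209, 522 and 912 CPM in untreated tdTomato+ luminal replicates 1 to 4 and to 169, 150 and 100 CPM after E+P, so the untreated library lowest in *Sox10* was also lowest in these. In GFP+ luminal cells they summed to 1740 to 2680 CPM in untreated mice and to 1030 to 1240 CPM after E+P, without a matching fall of *Sox10*. Markers of hormone-sensing luminal cells summed to 3660 to 5540 CPM in untreated tdTomato+ luminal cells and to 276 to 1810 CPM in untreated GFP+ luminal cells. After E+P they summed to 1740 to 2850 CPM in tdTomato+ and to 156 to 261 CPM in GFP+ luminal cells. How far the make-up of the sorted cells sets the level of *Sox10* was not tested.

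*Mbp*, which encodes the protein that holds the cytoplasmic faces of myelin together, was also mainly luminal. GFP+ luminal cells had 71.1, 95.3, 75.3 and 77.4 CPM in untreated mice and 38.2, 51.5 and 61.1 CPM after E+P. tdTomato+ luminal cells had 62.6, 102, 74.5 and 63.9 CPM and, after E+P, 29.3, 36.9 and 28.6 CPM. The colors overlapped widely in luminal cells, and the difference of 0.35 (SE 0.13) did not pass at an adjusted p of 0.0458, though it did with scaling by library size only (0.49, adjusted p = 0.00381), over a range of 0.00381 to 0.181. Both luminal subsets lay above all stromal libraries, with log2 differences of 2.59 (SE 0.24) in GFP+ and 3.29 (SE 0.25) in tdTomato+ cells and adjusted p values of 1.04e-09 and 3.39e-11. GENCODE lists 16 transcripts at this locus, and counts per gene do not tell golli from myelin forms.

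Stromal *Mbp* was lower and less steady. GFP+ stroma had 12.2, 16.3, 9.69 and 19.4 CPM in untreated mice and 7.14, 8.18 and 7.82 CPM after E+P. tdTomato+ stroma had 7.98, 6.32, 10.4 and 5.15 CPM and, after E+P, 1.74, 1.68 and 6.67 CPM. GFP+ cells were higher in 6 of 7 mice, by 1.06 on the log2 scale (SE 0.29, adjusted p = 0.00533). This call was lost on leaving out any of 5 mice, namely untreated replicates 1, 2 and 4 and E+P replicates 1 and 2, with differences from 0.88 to 1.11 and adjusted p from 0.0116 to 0.0327. It was also lost without the 2 luminal-rich libraries, at 1.15 and an adjusted p of 0.0103.

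*Mbp* was the single gene of the 6 that changed with E+P past the threshold. In tdTomato+ luminal cells it fell by 1.23 on the log2 scale (SE 0.20, adjusted p = 0.000536, with 6.44% of genes lower there), from a mean of 75.8 to 31.6 CPM, and no E+P library reached the untreated range. The adjusted p ran from 1.85e-07 to 0.00474 over the alternatives. In GFP+ luminal cells the ranges did not overlap either, with means of 79.8 and 50.3 CPM, but the difference of -0.67 (SE 0.19) had an adjusted p of 0.0323. The 2 responses differed by 0.57 (SE 0.27, adjusted p = 0.236). The 4 luminal markers summed to 6000 to 6560 CPM in untreated and to 5870 to 6330 CPM in E+P tdTomato+ luminal libraries, while 4 basal markers went from 4.70 to 8.96 up to 31.6 to 50.2 CPM. Of the basal markers, *Trp63* rose from a mean of 1.15 to 22.2 CPM and *Krt17* from 2.56 to 13.2 CPM. The basal keratins *Krt14*, at 1.98 and 2.20 CPM, and *Krt5*, at 0.470 and 0.260 CPM, did not pass the test. The part of these markers in the fall of *Mbp* was not tested.

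Few stromal genes were called for E+P, 0.231% in GFP+ and 0.124% in tdTomato+ stroma. These shares count calls and do not measure how many genes responded. None of the 5 tested genes passed in either subset by edgeR, by DESeq2 or by limma-voom. At an unadjusted p of 0.05, 2 passed in GFP+ stroma and 1 in tdTomato+ stroma. The share of all genes at an unadjusted p is not given here, so such counts cannot be set against a background. In GFP+ stroma, *Sox10* had means of 0.624 CPM in untreated and 0.0271 CPM in E+P mice, the latter below the worth of 3 counts, with a fitted log2 difference of -4.45 (SE 1.29) and an adjusted p of 0.167. That p ran from 0.00582 without the low-count filter to 0.68 without E+P replicate 2. In the same subset, *Mbp* had a log2 difference of -0.88 (SE 0.41, adjusted p = 0.599) although its groups did not overlap. In GFP+ luminal cells none of the 4 tested genes passed by edgeR or limma-voom and 1 passed by DESeq2, with 2 at an unadjusted p of 0.05. No response of these genes differed between the colors by edgeR, DESeq2 or limma-voom, where 0.0450% of genes were called in stroma, and 1 gene in each compartment had an unadjusted p under 0.05.

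**Figure D4:**
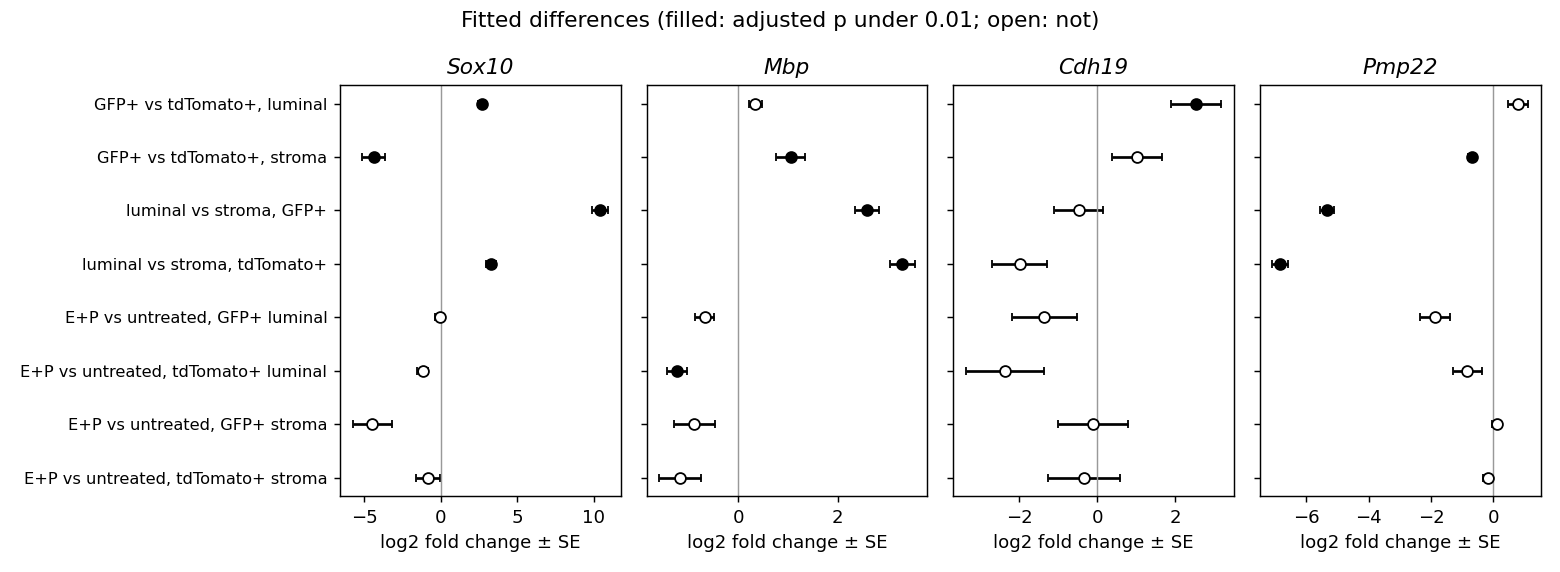
Fitted log2 differences with their SE for 4 genes in 8 comparisons, filled where the adjusted p is under 0.01 and open otherwise, with a scale of its own in each panel. *S100b* and *Foxd3* are left out because groups at or near 0 make their fitted values unstable. E+P points are open for all 4 genes except *Mbp* in tdTomato+ luminal cells, at -1.23.

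*Cdh19* encodes a cadherin of neural crest cells and Schwann cell precursors. GFP+ stroma carried it evenly, at 8.63, 9.14, 5.49 and 11.1 CPM in untreated mice and at 8.68, 5.33 and 9.54 CPM after E+P. tdTomato+ stroma had 5.89, 5.87, 2.79 and 3.40 CPM in untreated mice, but 0.204, 0.296 and 10.2 CPM after E+P. The E+P replicate 3 library was thus the highest of its subset and the other E+P libraries the lowest, and the difference between the colors, 1.03 (SE 0.65), had an adjusted p of 0.204. It became 2.82 (SE 0.34, adjusted p = 7.86e-06) without that mouse, and ran from 0.72 to 2.82 over all alternatives, with adjusted p up to 0.353. Both limma-voom and the fit without a low-count filter also called it, at adjusted p values of 0.00185 and 0.000446.

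In luminal cells *Cdh19* was again higher with GFP. GFP+ luminal cells had 12.2, 15.7, 4.45 and 5.66 CPM in untreated mice and 0.136, 5.38 and 5.45 CPM after E+P. tdTomato+ luminal cells had 4.03, 1.10, 2.02 and 1.98 CPM and, after E+P, 0, 0.513 and 0.666 CPM. GFP+ cells were higher in 7 of 7 mice, by 2.54 on the log2 scale (SE 0.65, adjusted p = 0.00612). Leaving out any mouse other than E+P replicate 1 ended the call, with differences from 2.25 to 2.69 and adjusted p from 0.0112 to 0.0362, as did limma-voom, at 0.0665. E+P replicate 1 was the lowest library of 3 of its groups, but not of GFP+ stroma. Between luminal cells and stroma *Cdh19* did not pass for either color, with differences of -0.47 (SE 0.63) in GFP+ and -1.99 (SE 0.71) in tdTomato+ cells and adjusted p values of 0.542 and 0.0166. The tdTomato+ difference passed by DESeq2 (-2.11, adjusted p = 0.00233) and without E+P replicate 1 (-2.04, adjusted p = 0.00435), but was -0.36 (adjusted p = 0.699) without E+P replicate 3, so that the adjusted p ran from 0.00233 to 0.699.

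*S100b*, a calcium-binding protein used as a Schwann cell stain, was a transcript of GFP+ stroma. There it stood at 6.96, 2.56, 4.57 and 2.48 CPM in untreated mice and at 5.19, 5.38 and 6.99 CPM after E+P. tdTomato+ stroma had 0, 0.812, 0.133 and 0.680 CPM and, after E+P, 0.204, 1.53 and 0.122 CPM. The 4 adipocyte markers summed to 0.0812 to 5.89 CPM in GFP+ and to 0.291 to 10.1 CPM in tdTomato+ stroma. The colors did not overlap for *S100b*, GFP+ cells were higher in 7 of 7 mice, and the log2 difference was 3.26 (SE 0.59, adjusted p = 0.00018). In tdTomato+ luminal cells no count fell on *S100b* in 7 libraries, against 55 counts in tdTomato+ stroma, which puts stroma at least 20.4-fold higher, without TMM, when a floor of 3 counts is set over the group. GFP+ luminal libraries held 7 counts in all, against 535 in GFP+ stroma, a ratio of 62.9 without TMM (95% interval 30.3 to 157, counting error only) and an adjusted p of 1.06e-06. With groups at 0, a difference of the color effect between the compartments could not be estimated.

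*Pmp22*, whose product is a small membrane protein of compact peripheral myelin, was the most abundant of the 6 genes in stroma. tdTomato+ stroma had 134, 185, 167 and 209 CPM in untreated mice and 170, 134 and 159 CPM after E+P. GFP+ stroma had 96.4, 114, 103 and 83.3 CPM and, after E+P, 102, 103 and 112 CPM. No GFP+ library reached the tdTomato+ range, and the difference of -0.70 (SE 0.11, adjusted p = 3.46e-05) was found in 7 of 7 mice. Pericyte and smooth muscle markers stood beside it at 6020 to 8990 CPM in tdTomato+ and at 641 to 830 CPM in GFP+ stroma. Their part in this difference was not tested.

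Luminal cells had little *Pmp22*. GFP+ luminal cells had 4.69, 4.43, 3.31 and 6.68 CPM in untreated mice and 0.748, 1.35 and 1.75 CPM after E+P, and tdTomato+ luminal cells 0.598 to 2.87 CPM. The luminal minus stroma difference was -5.35 on the log2 scale in GFP+ (SE 0.23) and -6.84 in tdTomato+ cells (SE 0.25), with adjusted p values of 5.8e-16 and 6.91e-17. The color effect differed between the compartments by 1.5 (SE 0.30, adjusted p = 0.000255), with a direction shared by 7 of 7 mice. In luminal cells alone the colors were not separated, at 0.78 (SE 0.32, adjusted p = 0.0583). The E+P difference in GFP+ luminal cells, -1.88 (SE 0.47), had an adjusted p of 0.0158 by edgeR and of 0.000775 by DESeq2, within a range of 0.000775 to 0.0834, and fibroblast markers in those libraries summed to 31.5 to 92.2 CPM in untreated and to 19.1 to 21.1 CPM in E+P mice. Their part in it was not tested.

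*Foxd3*, a forkhead factor of early neural crest, drew 34 counts over all 28 libraries and was too low to be tested in any comparison. Untreated tdTomato+ stroma of replicate 4 held 13 of them, at 1.26 CPM, and no other library passed 0.380 CPM. Summed over libraries, 25 counts fell in tdTomato+ stroma, 3 in GFP+ stroma and 6 in luminal cells.

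To compare the genes with each other, levels were divided by the length of their exons. In GFP+ luminal cells the means were 58.5 CPM per kb for *Sox10*, 7.93 for *Mbp*, 1.64 for *Cdh19* and 1.39 for *Pmp22*. In GFP+ stroma the order was *Pmp22*, *S100b*, *Cdh19*, *Mbp* and *Sox10*, at 43.3, 3.29, 1.93, 1.36 and 0.121 CPM per kb. In tdTomato+ stroma *Pmp22* had 70.3 CPM per kb and the other 5 genes stood below 1, with *Sox10* at 0.973 and *Cdh19* at 0.957, closer than their spread over libraries. *Sox10*, *Mbp* and *Cdh19* thus stood above *S100b* in luminal cells and below *Pmp22* in stroma.

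The starts of *S100b* and *Pmp22*, which separated the stromal colors in opposite directions without overlap, are shown by the 250 bases before each start in RefSeq (GRCm38.p6, plus strand), 5′ to 3′. RefSeq windows were matched for 3 of the 6 genes. *Pmp22* has several starts, of which the outer one and the next are given, and counts per gene do not tell them apart. Capitals mark CAAAG on either strand, a form of the core letters that Sox factors bind, which 48.6% of 32851 windows of this length hold. Other forms of the core were not searched.
S100b, chr10:76253586-76253835: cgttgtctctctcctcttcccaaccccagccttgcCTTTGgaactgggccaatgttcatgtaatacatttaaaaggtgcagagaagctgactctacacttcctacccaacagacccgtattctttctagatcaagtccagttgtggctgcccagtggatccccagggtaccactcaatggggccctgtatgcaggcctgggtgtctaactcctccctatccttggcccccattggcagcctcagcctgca
Pmp22, outer start, chr11:63128732-63128981: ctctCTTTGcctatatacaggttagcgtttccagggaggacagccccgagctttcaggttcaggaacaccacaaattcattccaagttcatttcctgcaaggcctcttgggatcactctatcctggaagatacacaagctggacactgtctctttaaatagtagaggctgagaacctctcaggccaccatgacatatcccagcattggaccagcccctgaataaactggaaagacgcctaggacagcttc
Pmp22, next start, chr11:63131207-63131456: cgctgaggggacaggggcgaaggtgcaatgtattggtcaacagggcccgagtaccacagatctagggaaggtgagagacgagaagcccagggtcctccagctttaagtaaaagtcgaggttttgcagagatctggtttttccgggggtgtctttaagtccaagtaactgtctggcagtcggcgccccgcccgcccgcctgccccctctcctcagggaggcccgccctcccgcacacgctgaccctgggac
The window of *S100b* and the outer window of *Pmp22* each hold CAAAG once and have 2 and 3 CpG, fewer than the median of 6. The next *Pmp22* window holds 14 CpG and lacks CAAAG on either strand. These are descriptions of the letters and say nothing of binding in these cells.

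Other genes of the Schwann lineage were followed to see whether the 6 genes stood in their usual company. Several transcripts of the Schwann lineage were near 0 in every subset. *Mag*, an adhesion protein of the myelin sheath, did not exceed 0.929 CPM in any library, nor *Cldn19* 1.43, *Gjb1* 0.680, *Dhh* 1.42 or *Fabp7* 0.812 CPM. *Sox2*, a factor of immature Schwann cells, did not exceed 0.157 CPM. The name Schwann cell genes describes where these genes are known from. The low markers above were picked after their values were seen, and other genes of the same lists were detected. *Cnp* averaged 6.3 CPM in luminal cells and 7 CPM in stroma, *Prx* 4.27 and 5.5 CPM and *Lgi4* 1.28 and 11.7 CPM. Whether Schwann cells were present cannot be read from the low markers alone.

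Among 6 Schwann lineage transcription factors, 5 were tested between luminal cells and stroma, of which 1 was higher in luminal cells and 3 in stroma. The share of all genes higher in luminal cells, 30.5%, and in stroma, 33.0%, is the background for this count and for those of the next lists. *Tfap2a*, a neural crest factor, was the luminal gene, at 85.9 against 0.665 CPM (log2 difference 7.70, SE 0.35, adjusted p = 2.35e-15). *Egr2*, the factor that turns on myelination, was stromal, at 91.3 against 7.88 CPM, as were *Nfatc4*, at 41.1 against 0.860 CPM, and *Pou3f1*, at 0.592 against 0.121 CPM. Both SoxE relatives of *Sox10* passed, in opposite directions. *Sox9* was luminal like *Sox10*, at 399 against 25.3 CPM (log2 difference 4.09, SE 0.21), and *Sox8* stromal, at 8.22 against 1.73 CPM.

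Of 14 peripheral myelin genes, 10 were tested between the compartments, of which 5 were higher in luminal cells and 1 in stroma, with a median log2 difference of 1.01 against -0.02 over all genes. *Cd9*, *Mal*, *Ugt8a*, *Pllp* and *Ncmap* were the luminal genes, and *Cd9*, a membrane tetraspanin, was the highest, at 290 against 94.0 CPM. *Gldn*, a ligand of nodes of Ranvier, was at 0 in 14 of 14 luminal libraries and at 2.00 CPM on average in stroma. Of 20 Schwann cell receptors, adhesion and signalling genes, 17 were tested, with 6 higher in luminal cells and 10 in stroma and a median of -2.96. *Erbb3*, the receptor through which neuregulin keeps Schwann cells alive, stood at 428 CPM in luminal cells and at 5.98 CPM in stroma. *Scn7a*, a sodium channel, had the reverse, with 0.626 and 303 CPM.

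**Figure D5:**
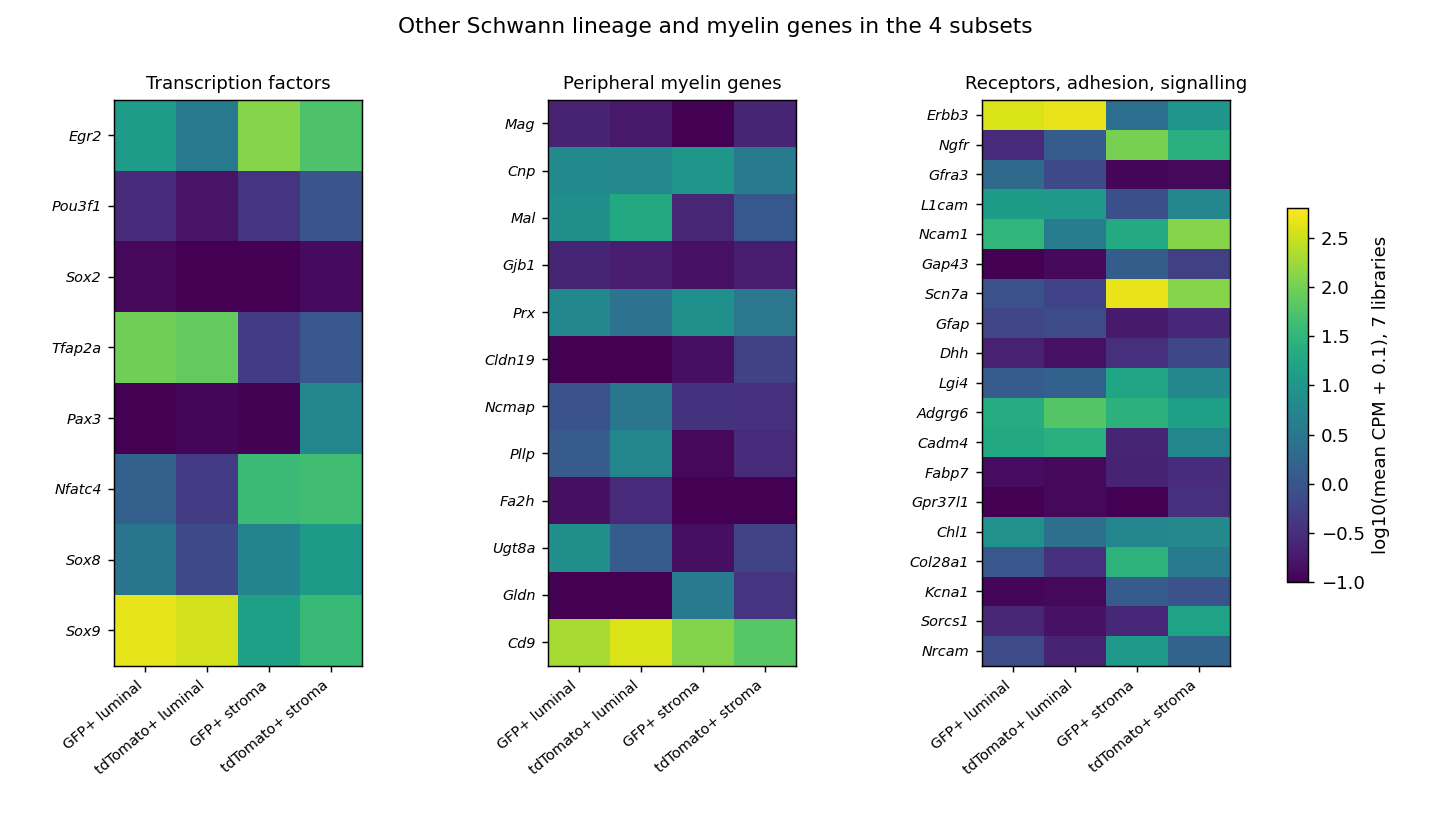
Mean level of other Schwann lineage genes in the 4 subsets, each over 7 libraries, as log10(mean CPM + 0.1), with transcription factors, myelin genes and receptor, adhesion and signalling genes in separate panels. *Erbb3*, *Tfap2a* and *Sox9* are bright in both luminal columns, *Scn7a* and *Egr2* in stroma, and *Mag*, *Gjb1* and *Sox2* are dark throughout.

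Between the stromal colors, 1 of 5 tested lineage factors was higher in GFP+ stroma and 1 in tdTomato+ stroma, beside 20.6% and 21.3% of all genes. *Egr2* was at 129 against 53.9 CPM (log2 difference 1.17, SE 0.16) and *Pax3*, a factor of neural crest and muscle precursors, at 0.00703 against 5.70 CPM. Of 8 tested myelin genes, *Cd9*, *Cnp*, *Prx* and *Gldn* were higher in GFP+ stroma and none in tdTomato+ stroma. Of 15 tested receptor and adhesion genes, 5 were higher in each. *Scn7a*, *Col28a1*, *Adgrg6*, *Lgi4* and *Nrcam* were the GFP+ genes, led by *Scn7a* at 476 against 130 CPM, and *Ncam1*, *Sorcs1*, *Erbb3*, *L1cam* and *Cadm4* the tdTomato+ genes, led by *Ncam1* at 129 against 21.3 CPM. *Lgi4*, a protein secreted by Schwann cells, stood at 17.5 and 5.88 CPM. Both SoxE relatives were higher in tdTomato+ stroma, *Sox9* at 36.2 against 14.4 CPM and *Sox8* at 11.5 against 4.94 CPM.

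Between the luminal colors, where 15.7% of all genes were higher in GFP+ and 19.0% in tdTomato+ cells, *Egr2* and *Sox8* were higher in GFP+ cells, at 12 against 3.75 CPM and 2.87 against 0.591 CPM. Myelin genes went both ways, with *Ugt8a* and *Prx* higher in GFP+ cells and *Cd9*, *Mal*, *Pllp* and *Ncmap* in tdTomato+ cells. *Ncam1*, *Chl1*, *Gfra3* and *Col28a1* were among the 5 genes higher in GFP+ cells of 14 tested receptor and adhesion genes, and *Erbb3* and *Adgrg6* were higher in tdTomato+ cells. *Ncam1* had the highest level of the former, at 32.0 against 3.82 CPM (log2 difference 3.12, SE 0.42, adjusted p = 7.01e-05).

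With E+P, where *Mbp* in tdTomato+ luminal cells was the one change called among the 6 genes, other genes of these lists also moved. In GFP+ stroma, where 0.163% of genes were higher, *Ngfr*, the low-affinity nerve growth factor receptor of immature Schwann cells, rose from 2.57 to 11.9 CPM in untreated mice to 228 to 246 CPM after E+P (log2 difference 5.13, SE 0.42, adjusted p = 7.59e-05). *Egr2* rose there from 61.4 to 82.4 CPM to between 137 and 247 CPM (1.44, SE 0.23, adjusted p = 0.00527), and *Ncam1* from 5.83 to 11.8 CPM to between 28.9 and 45.3 CPM (2.15, SE 0.25, adjusted p = 0.000455). These 3 were the genes called among 5 factors, 8 myelin genes and 15 receptor and adhesion genes tested. In tdTomato+ stroma *Ngfr* went from a mean of 12.3 to 41.2 CPM without overlap (log2 difference 1.75, SE 0.38, edgeR adjusted p = 0.0589). *Ncam1* and *Egr2* differed there by 0.39 and 0.03. The responses of the colors differed by 3.38 for *Ngfr*, 1.76 for *Ncam1* and 1.41 for *Egr2*. None of these passed, at edgeR adjusted p values of 0.0386, 0.0484 and 0.0943. In tdTomato+ stroma and in GFP+ luminal cells none of the genes of these lists passed by edgeR. At an unadjusted p under 0.05 there were 1 SoxE relative, 1 myelin gene and 8 receptor and adhesion genes in the former and 2 myelin genes and 6 receptor and adhesion genes in the latter, and other tools were not run on these lists. The share of all genes at that unadjusted p is not given here, so no enrichment can be read from these counts. In tdTomato+ luminal cells, where 7.63% of genes were higher, *Cd9*, *Erbb3*, *L1cam* and *Ngfr* rose, *Cd9* from 241 to 273 CPM to between 439 and 636 CPM. *Ngfr* rose from a mean of 0.0361 CPM, below the worth of 3 counts, to 2.68 CPM. The number of list genes tested there is not given here, so these calls cannot be set against that share.

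Lists of neurons, brain glia, melanocytes and nerve sheath were summed per library. The 7 neuron and axon genes summed to at most 8.74 CPM in any library. Of 7 brain glia genes the sum reached at most 13.7 CPM outside E+P tdTomato+ luminal cells, which had 10.7 to 49.0 CPM. Nearly all of that was *Aldh1l1*, a folate enzyme also made outside the brain, at a mean of 26.0 CPM, while *Olig1*, *Olig2*, *Mog* and *Aqp4* had no counts there. The 6 melanocyte genes summed to 126 to 206 CPM in GFP+ stroma, where *Mitf*, a factor also made outside melanocytes, had 180 CPM on average. The 7 perineurial and endoneurial genes summed to 110 to 195 CPM in GFP+ stroma and to 156 to 321 CPM in tdTomato+ stroma. Most of the latter was *Slc2a1*, at means of 202 CPM in untreated and 293 CPM in E+P mice. It had 79.5 and 87.3 CPM in GFP+ stroma and 153 CPM in luminal cells. *Osr2* went the other way, at 13.7 and 7.96 CPM in tdTomato+ and 49.6 and 72.9 CPM in GFP+ stroma.

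Genes with the most similar profile were sought by Pearson's r of log2 CPM over the 28 libraries among 15386 genes with a mean of at least 1 CPM. The libraries share mice and fall into luminal and stromal groups, so these r describe mainly that split. For *Sox10* the nearest were *Kit* (r = 0.985), *Celsr2*, *Itprid1*, 2010300C02Rik and *Tspan8*. For *Mbp* they were *Nat8f4* (0.959), *Mansc1*, *Serinc5*, *Fhdc1* and *Pik3c3*, for *Cdh19* *Gpc6* (0.800), *Fam151b*, *Dnah1*, *Ccdc171* and *Mill2*, for *S100b* *Extl2* (0.952), *Smcr8*, *Alx4*, *Stxbp5* and *Tbc1d2b*, and for *Pmp22* *Tns1* (0.989), *Ntrk2*, *Arhgap31*, *Pdgfrb* and *Dlc1*. With Spearman's rho, between 0 and 2 of the 5 genes were shared. Over the 14 stromal libraries alone *Lgi4* was among the 5 nearest of *Mbp* (0.904) and of *Cdh19* (0.870), and *Mbp* and *Cdh19* had r = 0.870 with each other. *Sox10* and *S100b* had r = -0.89 there, with GFP+ and tdTomato+ libraries at opposite ends.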

How the data were processed

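RNA of sorted cells was made into libraries by the authors with a stranded total RNA kit and read in pairs. The deposited values are read counts per gene, made by the authors with STAR 2.5.2a on GRCm38.p5 with a GENCODE annotation. They carry no molecular identifiers, and the release and the strand setting of the counting are not given in the sources used here. RNA quality varied widely and is not given per library. Symbols and coordinates come from GENCODE M21 (GRCm38), which held 50376 of 50600 IDs, and exons of no member overlap exons of another gene except *Foxd3*, with a microRNA gene at 0 counts.

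Groups and mouse numbers come from the titles. The groups titled treated are E+P in the study's methods. Counts were scaled by TMM, low genes removed by filterByExpr, and groups compared in edgeR 4.0.16 (R 4.3.3) with its robust quasi-likelihood fit and F-test, within stroma, within luminal cells, or over all 28 libraries for luminal against stroma. Adjusted p are Benjamini-Hochberg over all genes tested, and 0.01 is the threshold. The SE is the log2 difference divided by the square root of F. Log2 CPM for r have a prior count of 2. Ratios of summed counts use library totals without TMM. Their intervals are exact binomial, at 95%, and cover counting error only. Scripts were tested on simulated data with a spread that was set and not estimated from these libraries. For E+P in tdTomato+ luminal cells, 11% of 2-fold and 91% of 4-fold changes were recovered. For GFP+ against tdTomato+ cells, 40% of 2-fold changes were recovered in stroma and 45% in luminal cells. Each simulated comparison changed 100 genes at each fold, fewer than the same real comparison called. The Benjamini-Hochberg cutoff was thus stricter in the simulation, and these shares do not measure power in these data. Differences that did not pass may still be real.

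The 4 libraries of a mouse are paired by the mouse number in their titles. Deviations from group means correlated at a mean r of 0.157 between GFP+ and tdTomato+ luminal libraries of a mouse and 0.050 between stromal ones, against -0.061 and -0.019 between mice.

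Alternatives were DESeq2 size factors, library size only, DESeq2 1.42.0, limma-voom 3.58.1, keeping genes of low counts, a threshold of 0.05, a block for the mouse or replicate number, fits of only those groups under comparison, and the omission of each mouse in turn. The members and gene lists were chosen with earlier results of these data known. Genes named are the members, up to 6 called genes of the highest mean CPM per list and direction, and the 5 nearest by r. Defining markers of Schwann cells, other genes at low level and some genes within sums were named after their values were seen. Some genes of the lists are counted but not reported by name here.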

Additional observations from a re-analysis of the deposited data

Results flagged for a closer look

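The GFP+ to tdTomato+ difference of *Sox10* differed between luminal cells and stroma by 7.11 on the log2 scale (SE 0.66, edgeR adjusted p = 7.13e-09), being positive in luminal cells and negative in stroma in 7 of 7 mice. That of *Pmp22* differed by 1.5 (SE 0.30, edgeR adjusted p = 0.000255), and the direction of this contrast was the same in 7 of 7 mice. *Pmp22* was lower in GFP+ cells in stroma in 7 of 7 mice. It was higher in GFP+ cells in luminal libraries in 6 of 7, where the color effect did not pass (0.78, edgeR adjusted p = 0.0583). Both genes are given because the difference between the compartments was itself past the threshold. Among 20 sets of 4 untreated libraries with more than 3 counts in some library, 0 held a library farther from its neighbors than Dixon's critical value of 0.829 allows. The E+P groups, of 3 libraries each, were not checked in this way.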

How the results depend on the processing

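Counts of members called (edgeR, adjusted p of 0.01) were kept within 1.5 times except as follows. For E+P in GFP+ luminal cells, 0 became 2 at an adjusted p of 0.05 and 1 with library size only (*Mbp*), with DESeq2 (*Pmp22*) and with the replicate number as a block (*Mbp*), a number that different mice share (mean r of deviations -0.015). For E+P in tdTomato+ luminal cells, 1 became 2 at 0.05, with library size only and with DESeq2, and 1 to 2 on leaving out a mouse, the added gene being *Sox10* each time. For GFP+ against tdTomato+ luminal cells, 2 became 1 with limma-voom and without a low-count filter, and 1 to 2 on leaving out a mouse, *Cdh19* being lost each time. For E+P in GFP+ stroma, 0 became 1 without the filter (*Sox10*).

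None of the values that turned direction had passed the threshold. They were *S100b* for E+P by color in stroma (0.38 with the mouse as a block), *Sox10* for E+P in GFP+ luminal cells (0.12 with the replicate number as a block), and, on leaving out a mouse, *Sox10* for E+P in GFP+ luminal cells (-0.18 to 0.06), *S100b* for E+P in tdTomato+ stroma (-1.22 to 1.24), *Cdh19* for E+P in GFP+ stroma (-0.29 to 0.08) and tdTomato+ stroma (-4.12 to 0.22) and for the color effect by compartment (-0.20 to 1.88), and, for E+P by color in stroma, *Mbp* (-0.10 to 1.23), *Cdh19* (-0.41 to 3.82) and *S100b* (-0.92 to 1.77). The cause was not tested. The mouse as a block changed no call. The 2 luminal-rich libraries were left out after seeing the data.

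Values near or below the worth of 3 counts, as for *Foxd3* and luminal *S100b*, were limited by depth.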
